A study of Mus musculus with 4 samples.

Results

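The genes described are 10 members of the Sox family of transcription factors (Sox2, Sox3, Sox4, Sox5, Sox6, Sox8, Sox9, Sox10, Sox11 and Sox17), picked by symbol from 21249 gene symbols measured in mouse spinal cord. They were read in 4 RNA-seq libraries from cords of mice at postnatal day 8, an age at which myelin is being laid down. The cKO group held 2 libraries from mice with genotype Chd7f/f; Olig1-cre, and the Ctrl group held 2 libraries from mice with genotype Chd7f/+; Olig1-cre. Both groups carried the same Cre, whose driver Olig1 is active in oligodendrocyte lineage cells and their progenitors, and both were of mixed strain background. The controls kept 1 unfloxed copy of Chd7, and their floxed copy was exposed to the Cre as well. In cells where the Cre acts, the comparison is thus between both copies floxed and a floxed copy beside an unfloxed one. Chd7 encodes a chromatin remodeler, and the series title pairs it with Sox10 in the timing of myelination. Levels are FPKM, fragments per kilobase of transcript scaled to the number of mapped fragments, summed over the transcripts of 300 bases or more of each gene. A gene is said to have risen or fallen where limma on log2(FPKM + 1), with Benjamini-Hochberg adjustment over the 12913 genes with a mean of at least 1 FPKM, gave an adjusted p under 0.05. All 10 Sox genes passed that filter.

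Sox proteins bind DNA through an HMG box, a domain that bends the double helix, and they are sorted into subgroups by the similarity of that box. SoxB1 proteins (Sox2, Sox3) keep neural progenitors undifferentiated, SoxC proteins (Sox4, Sox11) act in young neurons and other immature cells, and SoxD proteins (Sox5, Sox6) lack a transactivation domain and hold back oligodendrocyte precursors. SoxE proteins (Sox8, Sox9, Sox10) specify glia, Sox9 early and in astrocytes, Sox10 throughout the oligodendrocyte lineage and in Schwann cells, where it activates myelin genes. The SoxF protein Sox17 acts in endothelium and has been described in oligodendrocyte progenitors.

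The relatedness of the subgroups can be read from the coding sequence at the start of the HMG box, which is shown here because near-identical copies could share reads. Each line gives 48 coding bases of a GENCODE M21 transcript on GRCm38, from 5′ to 3′, with capitals at bases that differ from Sox10.
Sox10: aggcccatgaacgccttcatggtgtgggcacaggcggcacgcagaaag
Sox8: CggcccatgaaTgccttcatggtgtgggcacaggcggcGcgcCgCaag
Sox9: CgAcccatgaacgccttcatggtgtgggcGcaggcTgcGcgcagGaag
Sox11: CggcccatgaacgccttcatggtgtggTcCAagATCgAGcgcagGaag
Sox2: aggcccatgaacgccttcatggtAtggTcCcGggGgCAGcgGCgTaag
Sox5: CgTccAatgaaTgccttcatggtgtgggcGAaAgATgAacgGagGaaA
The Sox10 stretch lies in 1 exon at chr15:79163354-79163401 on the minus strand, and the Sox8 stretch at chr17:25570175-25570222 on the minus strand. Sox8 differed from Sox10 at 5 of the 48 bases and Sox9 at 6, against 10 for Sox11, 11 for Sox2 and 13 for Sox5. Over the coding bases of the whole HMG box, identity to Sox10 was 83.1% for Sox9 and 81.4% for Sox8, and it ran from 56.1% (Sox6) to 70.9% (Sox17) for the other members. The longest exact run shared by any pair of the members' transcripts was 48 bases, between Sox4 and Sox11, followed by 44 bases between Sox9 and Sox10, both runs being coding sequence.
Sox4 and Sox11: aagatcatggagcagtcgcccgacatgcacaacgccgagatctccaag
Sox9 and Sox10: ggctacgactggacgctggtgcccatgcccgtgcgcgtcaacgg
Sox8 and Sox10 shared at most 26 bases in a row. The length of the reads was not among the information used here.

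The libraries differed in depth. The ratio of coverage to FPKM gave a relative depth of 2.22 and 3.19 in cKO 1 and cKO 2, and of 2.07 and 1.0 in Ctrl 1 and Ctrl 2. Chd7 itself was at 2.52 and 3.38 FPKM in the cKO libraries and at 3.52 and 3.12 FPKM in the Ctrl libraries, which overlap (log2 fold change -0.13 ± 0.16 SE, limma adjusted p = 0.657). The labels do not say which exons are floxed, so the summed level is a weak check of the genotypes. Markers of neurons, astrocytes and myelinating oligodendrocytes were present in all libraries, as in spinal cord. Markers of tissue around the cord stood apart in Ctrl 1: 10 meningeal and fibroblast genes summed to 40.5 and 43.0 FPKM in cKO 1 and cKO 2 and to 283 and 65.3 FPKM in Ctrl 1 and Ctrl 2, and 7 Schwann cell genes summed to 21.1 and 20.7 FPKM in cKO 1 and cKO 2 and to 115 and 29.9 FPKM in Ctrl 1 and Ctrl 2. Whether the libraries of a group came from separate animals is not stated. The X-inactivation transcript Xist was at 19.6 and 0.233 FPKM in cKO 1 and cKO 2, and the Y-linked Ddx3y at 0.195 and 11.6 FPKM. The cKO libraries were therefore not repeats of 1 sample, while the spread between the Ctrl libraries may be technical. The p-values rest on the spread between libraries, mostly pooled over genes.

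The plot of levels by library shows that the Sox genes spanned more than an order of magnitude in the cord. Sox10 was the most abundant in each library and Sox8 the next, followed by Sox2. Averaged over the 4 libraries, Sox10 stood at 58.4, Sox8 at 44.4, Sox2 at 30.5, Sox4 at 10.9, Sox9 at 9.22, Sox6 at 5.22, Sox3 at 3.79, Sox11 at 3.30, Sox5 at 2.27 and Sox17 at 1.67 FPKM. The ranges over the 4 libraries overlapped between Sox10 and Sox8, Sox8 and Sox2, Sox4 and Sox9, Sox6 and Sox3, Sox3 and Sox11, and Sox5 and Sox17, though Sox10, Sox8 and Sox2 kept their order within each library. Sox2 and Sox4, Sox9 and Sox6, and Sox11 and Sox5 did not overlap.

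**Figure D1:**
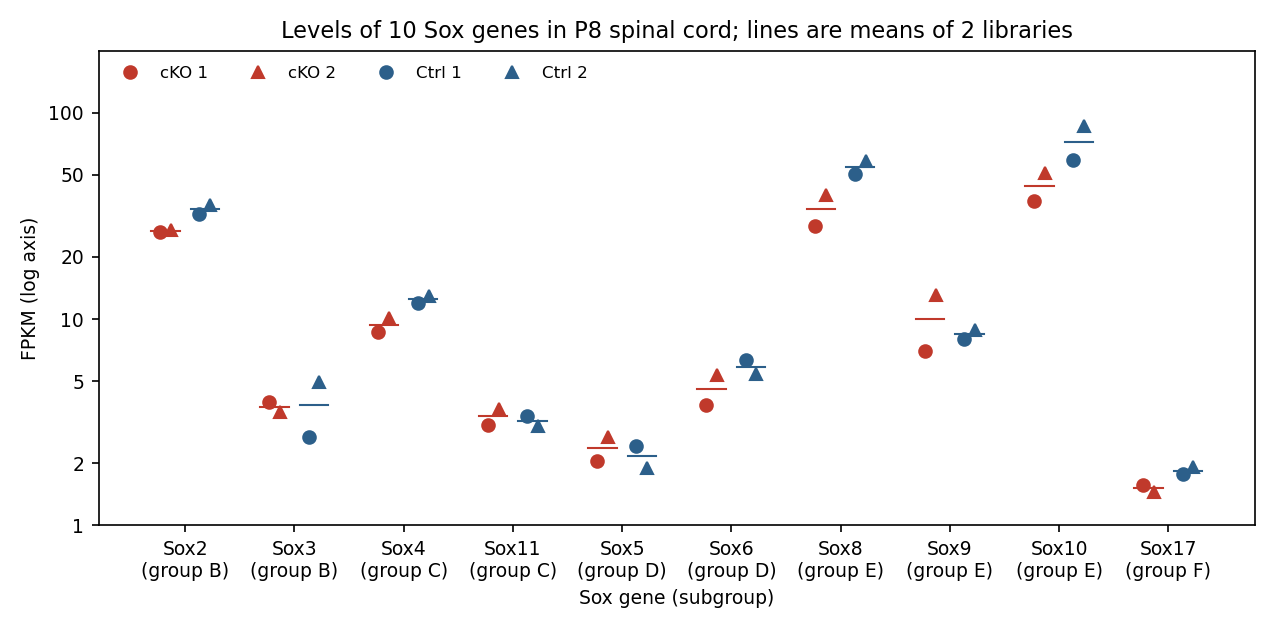
FPKM of each Sox gene (log axis) in cKO 1, cKO 2, Ctrl 1 and Ctrl 2, with a line at the mean of each group of 2. Sox8 and Sox10 lie lower in both cKO libraries than in both Ctrl libraries, while the groups overlap for Sox3, Sox5, Sox9 and Sox11.

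Between genotypes, 2 of the 10 Sox genes fell in cKO cords, Sox8 and Sox10, both of subgroup E, and none rose. Of all 12913 genes tested, 6.54% fell and 4.13% rose (10.7% in either direction). The remaining 8 Sox genes did not pass. At an unadjusted p under 0.05, 4 Sox genes were lower (Sox2, Sox4, Sox8 and Sox10) and none higher, against 13.8% and 10.4% of all genes. Both cKO libraries lay below both Ctrl libraries for 6 of the 10, against 29.3% of all genes, and above them for none, against 24.3% of all genes. The median log2 fold change was -0.24 over the 10 Sox genes and -0.0028 over all genes, with 6 of the 10 below 0, against 50.5% of all genes.

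**Figure D2:**
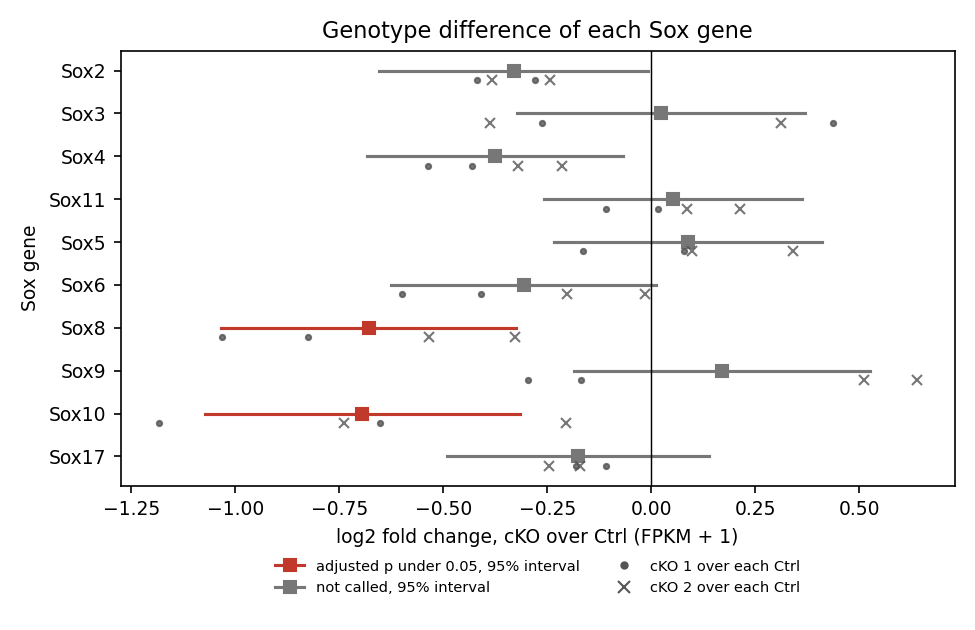
Log2 fold change of each Sox gene, cKO over Ctrl on the log2(FPKM + 1) scale, with its 95% limma interval, and below it the ratio of cKO 1 (dots) and cKO 2 (crosses) to each Ctrl library. The intervals of Sox8 (-1.03 to -0.32) and Sox10 (-1.07 to -0.32) lie below 0, and cKO 1 is the lower cKO library for both.

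In subgroup E, Sox10 and Sox8 fell and Sox9 did not pass. Sox10 (chr15:78985343-78994920 on mm9, 1 transcript), which drives myelin genes, was at 37.3 and 51.1 FPKM in cKO 1 and cKO 2, against 59.1 and 85.9 FPKM in Ctrl 1 and Ctrl 2. The groups did not overlap, although cKO 2 lay close to Ctrl 1. Its means were 44.2 ± 9.81 FPKM in cKO and 72.5 ± 19.0 FPKM in Ctrl (SD, n = 2 each), and its log2 fold change of -0.69 ± 0.19 (SE) passed (limma adjusted p = 0.0112). Among the genes tested it stood at rank 1978 and 1227 in the cKO libraries and at rank 1022 and 672 in the Ctrl libraries, counted from the most abundant.

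Sox8 (chr17:25702838-25707631 on mm9, 1 transcript), which acts beside Sox10 in myelinating cells, was at 28.1 and 40.2 FPKM in cKO 1 and cKO 2, against 50.6 and 58.6 FPKM in Ctrl 1 and Ctrl 2. Again both cKO libraries lay below both Ctrl libraries, with cKO 1 the lowest. Its means were 34.2 ± 8.52 FPKM in cKO and 54.6 ± 5.63 FPKM in Ctrl (SD, n = 2 each; log2 fold change -0.68 ± 0.18 SE, limma adjusted p = 0.00809). Among all genes tested, 2.71% had a lower log2 fold change than Sox10 and 2.88% a lower one than Sox8. In a whole cord, fewer cells of a type and less RNA per cell cannot be told apart.

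Both calls depended on cKO 1 and on Ctrl 2. Without cKO 1, the log2 fold changes fell short of the threshold at -0.47 for Sox10 (limma adjusted p = 0.339) and -0.43 for Sox8 (adjusted p = 0.425), and without Ctrl 2 they did so at -0.43 (adjusted p = 0.243) and -0.58 (adjusted p = 0.0684). Without Ctrl 1, the library with the high Schwann cell and meningeal markers, the values were larger, at -0.96 for Sox10 (adjusted p = 0.00164) and -0.78 for Sox8 (adjusted p = 0.00884). With libraries scaled by median of ratios, to TPM or by quantiles, Sox10 missed the threshold (adjusted p = 0.0619, 0.0599 and 0.0668), and Sox8 missed it under quantile scaling (adjusted p = 0.0570). Neither passed with no filter on low values (adjusted p = 0.203 for Sox10 and 0.159 for Sox8) or when single transcripts were tested (adjusted p = 0.323 and 0.285), at the same fold changes.

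Sox9 (chr11:112643524-112649071 on mm9, 1 transcript), a glial fate gene of progenitors and astrocytes, was at 7.01 and 13.0 FPKM in cKO 1 and cKO 2, against 8.01 and 8.84 FPKM in Ctrl 1 and Ctrl 2. The 2 cKO libraries differed 1.86-fold and lay on either side of the Ctrl libraries, so the groups overlap. Its log2 fold change was 0.17 ± 0.18 (SE, limma adjusted p = 0.605), with a 95% interval from -0.19 to 0.53, and its direction was set by the cKO library used, at 0.57 without cKO 1 and -0.23 without cKO 2.

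The balance within subgroup E also differed in value between the groups. Sox10 exceeded Sox9 5.31-fold and 3.93-fold in cKO 1 and cKO 2, against 7.38-fold and 9.72-fold in Ctrl 1 and Ctrl 2, and the groups did not overlap. Sox9 made up 9.68% and 12.5% of the summed SoxE FPKM in the cKO libraries and 6.80% and 5.76% in the Ctrl libraries. The ratio of Sox10 to Sox8, by contrast, was 1.32 and 1.27 in the cKO libraries and 1.17 and 1.47 in the Ctrl libraries, so the pair kept to a similar ratio and the groups overlapped. For each of these ratios 2 libraries against 2 cannot give a two-sided exact permutation p below 0.333, and the ratio of Sox10 to Sox9 gave that smallest value, so a difference between Sox9 and Sox10 in their response to genotype was not resolved by a test.

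**Figure D3:**
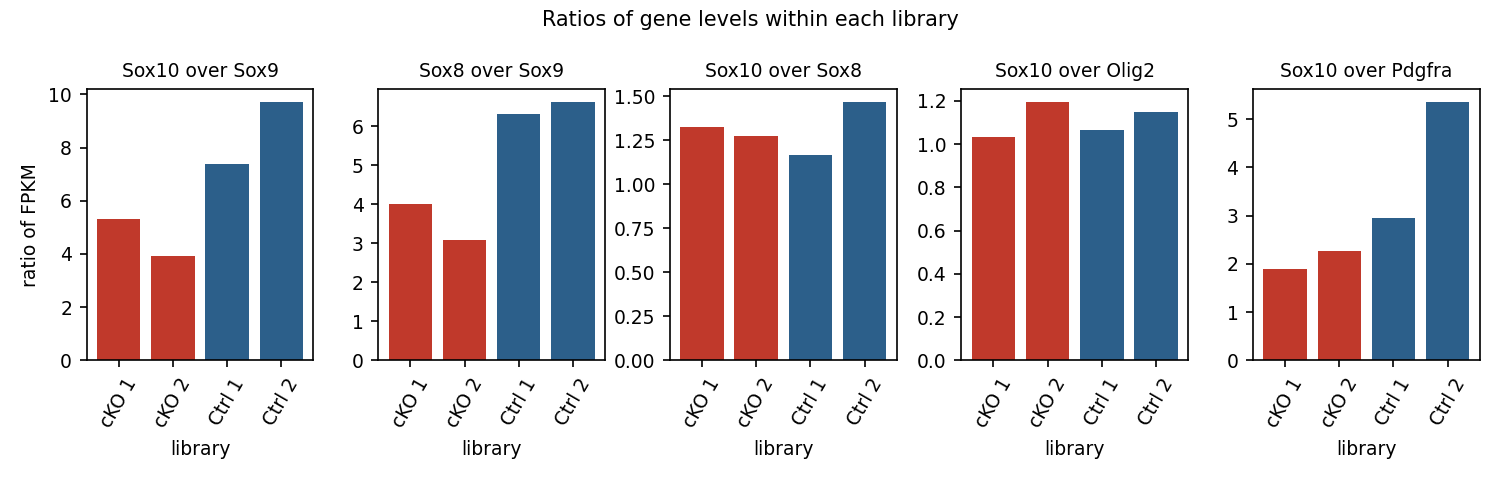
Ratios of FPKM within each library, cKO (red) left of Ctrl (blue), for Sox10 and Sox8 over Sox9, Sox10 over Sox8, and Sox10 over Olig2 and Pdgfra. Sox10 over Sox9 is 5.31 and 3.93 in the cKO libraries and 7.38 and 9.72 in the Ctrl libraries, while Sox10 over Olig2 stays between 1.03 and 1.20 in all 4.

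Set against other genes of the lineage, Sox10 kept level with Olig2, the basic helix-loop-helix factor of the whole oligodendrocyte lineage, which fell too. Olig2 was at 36.1 and 42.8 FPKM in cKO 1 and cKO 2 and at 55.5 and 74.9 FPKM in Ctrl 1 and Ctrl 2. Its log2 fold change was -0.70 (limma adjusted p = 0.00635). The ratio of Sox10 to Olig2 was 1.03 and 1.20 in cKO 1 and cKO 2 and 1.06 and 1.15 in Ctrl 1 and Ctrl 2, and that of Sox8 to Olig2 was 0.780 and 0.939 in the cKO libraries and 0.912 and 0.782 in the Ctrl libraries. Both ratios overlapped between groups. Against Pdgfra, the growth factor receptor of precursors, Sox10 was at 1.90 and 2.26 in the cKO libraries and at 2.95 and 5.36 in the Ctrl libraries. Pdgfra and Cspg4, the precursor markers, did not pass in either direction, and at an unadjusted p under 0.05 neither did (limma).

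Of 18 transcription factors listed beside SoxE and SoxD in oligodendrocytes, 6 fell and 1 rose, against 6.54% and 4.13% of all genes. Their median log2 fold change was -0.35, against -0.0028 over all genes. Zeb2, a zinc finger factor that promotes myelination, was at 6.10 and 9.20 FPKM in the cKO libraries and at 17.8 and 16.2 FPKM in the Ctrl libraries. Myrf, the myelin gene regulator that Sox10 activates and works with, was at 13.9 and 25.8 FPKM in the cKO libraries and at 39.1 and 43.6 FPKM in the Ctrl libraries. Nkx2-2, a homeodomain factor of differentiating cells, was at 7.93 and 7.91 FPKM in the cKO libraries and at 11.3 and 16.4 FPKM in the Ctrl libraries. For each of these 3 both cKO libraries lay below both Ctrl libraries. The gene that rose was Id2, at 89.4 and 111 FPKM in the cKO libraries and 72.4 and 57.5 FPKM in the Ctrl libraries. Between 2 and 7 of the 18 fell when any 1 library was left out (3 without cKO 1 and 2 without Ctrl 2), and none did with no filter.

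Genes known as bound or activated by Sox10 in glia and other lineages were lower as a list. Of 15 tested out of 16, 11 fell and none rose, against 6.54% and 4.13% of all genes. Their median log2 fold change was -1.03, against -0.0028 over all genes. Erbb3, a neuregulin receptor, was at 1.19 and 2.10 FPKM in cKO 1 and cKO 2 and at 5.99 and 5.48 FPKM in Ctrl 1 and Ctrl 2 (limma adjusted p = 1.29e-07). Cnksr3, a scaffold protein, was at 5.63 and 8.42 FPKM in the cKO libraries and at 15.1 and 15.6 FPKM in the Ctrl libraries (limma adjusted p = 1.17e-05). Without cKO 1, 5 of the list fell, without Ctrl 1 or without Ctrl 2, 7 did, and with no filter none did.

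Markers of myelinating oligodendrocytes moved with Sox10 and Sox8. Of 7 such genes 6 fell and none rose, against 6.54% and 4.13% of all genes. Their sum was 6413 and 10034 FPKM in cKO 1 and cKO 2, against 15565 and 17780 FPKM in Ctrl 1 and Ctrl 2. None of them was at 0. Without cKO 1, without Ctrl 1 or without Ctrl 2, 3 of the 7 fell, with no filter 1 did, and with transcript rows none did. Their part in the SoxE values was not tested. The myelin transcripts Mog and Mbp also lay lower relative to Sox10 itself. The ratio of Mog, which sits on the outermost myelin layer, to Sox10 was 2.29 in each cKO library and 3.99 and 2.90 in Ctrl 1 and Ctrl 2. That of Mbp was 114 and 123 in the cKO libraries and 149 and 126 in the Ctrl libraries, a smaller difference. Both cKO libraries lay below both Ctrl libraries for both ratios, each with an exact permutation p of 0.333, the smallest this design allows (two-sided).

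In subgroup B, the progenitor gene Sox2 was lower without passing and Sox3 showed no common direction. Sox2 (chr3:34548927-34551382 on mm9, 1 transcript) was at 26.5 and 27.2 FPKM in cKO 1 and cKO 2, against 32.4 and 35.7 FPKM in Ctrl 1 and Ctrl 2. The libraries of each group lay close together and the groups did not overlap, with a log2 fold change of -0.33 ± 0.16 (SE, limma adjusted p = 0.193) and a 95% interval from -0.65 to -0.01. Sox3 (chrX:58144541-58146605 on mm9, 1 transcript), which shares roles with Sox2, was at 3.97 and 3.55 FPKM in the cKO libraries and at 2.67 and 4.96 FPKM in the Ctrl libraries. The Ctrl libraries, 1.86-fold apart, enclosed both cKO libraries (log2 fold change 0.02 ± 0.17 SE, 95% interval from -0.32 to 0.37, limma adjusted p = 0.953), and the value turned to -0.33 without Ctrl 1 and 0.37 without Ctrl 2. Sox3 is X-linked, and the X-inactivation transcript Xist was at 19.6 and 0.233 FPKM in cKO 1 and cKO 2 and at 55.6 and 51.8 FPKM in Ctrl 1 and Ctrl 2, while the Y-linked Ddx3y was at 0.195 and 11.6 FPKM in the cKO libraries and at 0.144 and 0.0720 FPKM in the Ctrl libraries. By these transcripts cKO 2 alone had a male pattern and both Ctrl libraries a female one, so sex was not balanced between the groups. The part of the sex of the animals in the values of Sox3 and of the other Sox genes was not tested.

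A much larger difference was seen in the noncoding gene around Sox2. Sox2ot (chr3:34459303-34576915 on mm9), a long noncoding RNA whose locus spans Sox2, was at 5.24 and 7.38 FPKM in cKO 1 and cKO 2, against 23.5 and 19.8 FPKM in Ctrl 1 and Ctrl 2. It was looked up because its row overlaps Sox2, and its description here was chosen after its values were seen. Its mean was 3.43-fold lower in cKO (log2 fold change -1.64 ± 0.16 SE, limma adjusted p = 1.23e-09), and the ratio of Sox2 to Sox2ot was 5.06 and 3.68 in the cKO libraries and 1.38 and 1.80 in the Ctrl libraries. Whether reads were assigned by strand is not stated in the labels, and the part of Sox2ot reads in the Sox2 value was not tested. For the other 9 Sox genes no row of another gene overlapped the locus.

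**Figure D4:**
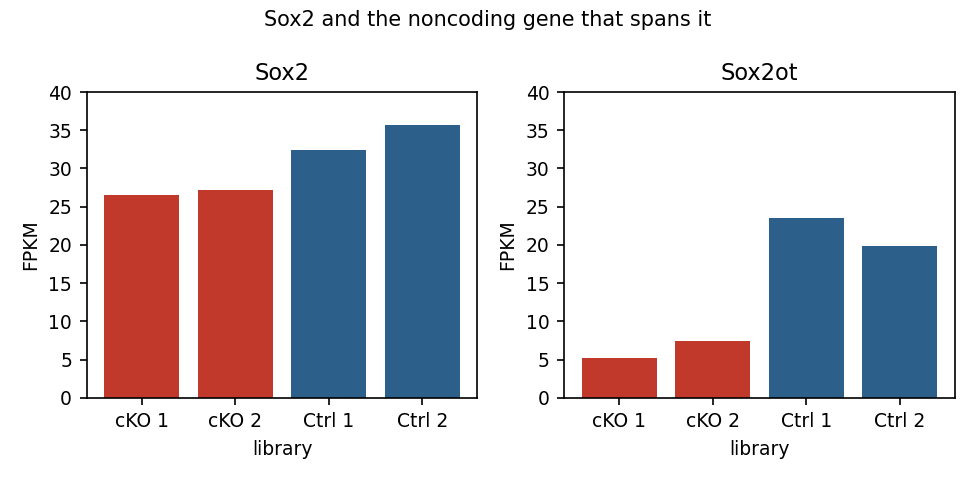
FPKM of Sox2 and of Sox2ot, the noncoding gene that spans it, in cKO 1, cKO 2, Ctrl 1 and Ctrl 2. Sox2 is at 26.5 and 27.2 FPKM in cKO and 32.4 and 35.7 FPKM in Ctrl, while Sox2ot is at 5.24 and 7.38 FPKM in cKO and 23.5 and 19.8 FPKM in Ctrl.

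Markers of the cells that use Sox2, Sox3 and Sox9 were mixed. Of 10 astrocyte genes, Slc1a3, a glutamate transporter, rose (80.2 and 83.0 FPKM in the cKO libraries, 57.1 and 48.7 FPKM in the Ctrl libraries), and none fell. No astrocyte gene rose without cKO 1, without cKO 2 or without Ctrl 2, and under quantile scaling none rose and 1 fell. The other 9 did not pass, with 3 lower and 1 higher at an unadjusted p under 0.05 (limma). The list summed to 1631 and 2060 FPKM in cKO 1 and cKO 2 and to 2023 and 2247 FPKM in Ctrl 1 and Ctrl 2. Of 9 genes of neural progenitors and ependyma, Prom1, a membrane protein of progenitors, fell (3.13 and 3.72 FPKM in the cKO libraries, 9.68 and 7.77 FPKM in the Ctrl libraries) and Ccdc153, a gene of ciliated ependyma, rose (2.73 and 2.01 FPKM in the cKO libraries, 0.611 and 0.338 FPKM in the Ctrl libraries), a call lost without cKO 1. No marker of these lists was at 0, and their part in the Sox2 and Sox9 values was not tested.

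In subgroup C, neither gene passed. Sox4 (chr13:29042599-29045551 on mm9, 1 transcript) was at 8.63 and 10.2 FPKM in cKO 1 and cKO 2, against 11.97 and 12.96 FPKM in Ctrl 1 and Ctrl 2. The groups did not overlap. At -0.38 ± 0.15 (SE) on the log2 scale Sox4 missed the threshold (limma adjusted p = 0.110), with a 95% interval from -0.68 to -0.07. Sox11 (chr12:28019133-28027583 on mm9, 1 transcript) was at 3.08 and 3.67 FPKM in the cKO libraries and at 3.40 and 3.03 FPKM in the Ctrl libraries. Here the groups overlapped, at a log2 fold change of 0.05 ± 0.15 (SE, limma adjusted p = 0.877) and a 95% interval from -0.26 to 0.36. Within each library Sox4 exceeded Sox11 by 2.80-fold and 2.77-fold in cKO 1 and cKO 2, against 3.52-fold and 4.27-fold in Ctrl 1 and Ctrl 2, without overlap (two-sided exact permutation p = 0.333, the smallest the design allows).

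Sox4 and Sox11 mark young neurons among other cells. Of 10 genes of young neurons, 9 had a log2 fold change above 0, against 49.5% of all genes, with a median of 0.38, against -0.0028 over all genes, but only 1 passed, Gap43, a growth cone protein at 319 and 245 FPKM in cKO 1 and cKO 2 and 170 FPKM in each Ctrl library. The list summed to 1441 and 1147 FPKM in the cKO libraries and to 851 and 852 FPKM in the Ctrl libraries. Dcx, a microtubule protein of migrating neurons, overlapped between the groups, at 6.82 and 8.38 FPKM in the cKO libraries and 7.94 and 6.57 FPKM in the Ctrl libraries, as did the RNA-binding protein gene Elavl4, while its relative Elavl3 had a log2 fold change of -0.10. Markers of mature neurons lay on the same side, with 6 of 6 above 0, a median of 0.39 and 1 that rose, Slc32a1, the transporter that loads inhibitory transmitters into vesicles. They summed to 1422 and 1236 FPKM in the cKO libraries and to 1025 and 985 FPKM in the Ctrl libraries. No mature neuron gene rose under median-of-ratios, TPM or quantile scaling, or with the replicate number as a block. None of either list was at 0, and their part in the SoxC values was not tested. Without cKO 1 or without Ctrl 2 none of either list rose.

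In subgroup D, neither gene passed. Sox6 (chr7:122614858-123182258 on mm9, 3 transcripts) was at 3.82 and 5.34 FPKM in cKO 1 and cKO 2, against 6.30 and 5.40 FPKM in Ctrl 1 and Ctrl 2. Both cKO libraries lay below both Ctrl libraries, although cKO 2 and Ctrl 2 nearly met, and the log2 fold change was -0.31 ± 0.16 (SE, limma adjusted p = 0.227), with a 95% interval from -0.63 to 0.01. Sox5 (chr6:143781349-144158078 on mm9, 2 transcripts) was at 2.06 and 2.67 FPKM in the cKO libraries and at 2.43 and 1.90 FPKM in the Ctrl libraries, which overlap (log2 fold change 0.09 ± 0.16 SE, 95% interval from -0.23 to 0.41, limma adjusted p = 0.788).

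The transcripts of Sox5 and Sox6 were divided differently in cKO 2. The 2770-base Sox5 transcript NM_001113559 took 11.6% and 48.3% of the Sox5 level in cKO 1 and cKO 2, and 29.8% and 14.8% in Ctrl 1 and Ctrl 2. The 8227-base Sox6 transcript NM_011445, with the start farthest into the gene, took 4.57% and 22.0% in cKO 1 and cKO 2, and 6.18% and 5.48% in Ctrl 1 and Ctrl 2. The main Sox6 transcript NM_001025559 (8079 bases) was at 2.89 and 3.31 FPKM in the cKO libraries and at 4.86 and 5.11 FPKM in the Ctrl libraries, and both cKO libraries lay below both Ctrl libraries (log2 fold change -0.55, limma adjusted p = 0.252 over transcripts). In Ctrl 2, the shallowest library, the Sox6 transcript NM_001025560 was at 0.000164 FPKM, against 1.05 FPKM in Ctrl 1 and 0.756 and 0.857 FPKM in the cKO libraries. The transcripts of a gene share most of their bases, so their split is an estimate of the authors' software, and depth limits it in Ctrl 2.

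**Figure D5:**
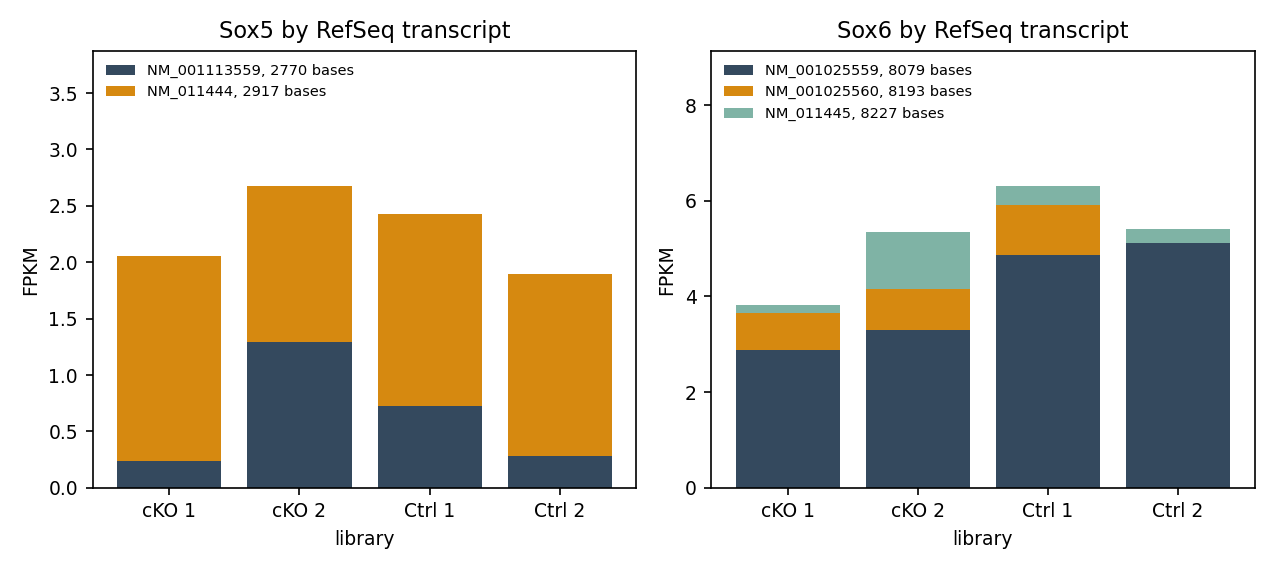
FPKM of Sox5 and Sox6 split by RefSeq transcript (stacked bars) in cKO 1, cKO 2, Ctrl 1 and Ctrl 2. The 2770-base Sox5 transcript and the 8227-base Sox6 transcript take their largest share in cKO 2, at 48.3% and 22.0%.

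Of the genes that SoxD proteins are known to act on or that mark precursors, Gpr17, a receptor of cells entering differentiation, fell among 5 listed (32.9 and 39.4 FPKM in the cKO libraries, 107 and 114 FPKM in the Ctrl libraries, limma adjusted p = 2.37e-08). Ptprz1, Lhfpl3, Pdgfra and Cspg4 had log2 fold changes from 0.07 to 0.26 and did not pass.

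Subgroup F was represented by Sox17 (chr1:4481009-4486494 on mm9, 1 transcript), the least abundant of the 10. It was at 1.57 and 1.46 FPKM in cKO 1 and cKO 2, against 1.77 and 1.91 FPKM in Ctrl 1 and Ctrl 2. The groups did not overlap, at a log2 fold change of -0.18 ± 0.16 (SE, limma adjusted p = 0.532) and a 95% interval from -0.49 to 0.14. On this scale the added 1 FPKM understates changes of so low a gene, whose ratio of means was 0.822. Between 4.29 and 10.4 kilobases of aligned sequence per library stood behind these values, against 126 to 317 for Sox8 and Sox10. None of 10 endothelial genes passed (limma), with 2 lower at an unadjusted p under 0.05, although 1 fell without cKO 1 and 1 without Ctrl 1, and their sum was 133 and 100.4 FPKM in the cKO libraries and 123 and 134 FPKM in the Ctrl libraries.

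Summed by subgroup, SoxE stood at 72.4 and 104 FPKM in cKO 1 and cKO 2, against 118 and 153 FPKM in Ctrl 1 and Ctrl 2, a 1.55-fold lower geometric mean in cKO. SoxB stood at 30.5 and 30.7 FPKM in the cKO libraries and 35.0 and 40.7 FPKM in the Ctrl libraries, and SoxC at 11.7 and 13.9 FPKM in the cKO libraries and 15.4 and 16.0 FPKM in the Ctrl libraries. SoxD overlapped between the groups, at 5.88 and 8.01 FPKM in the cKO libraries and 8.73 and 7.30 FPKM in the Ctrl libraries. SoxE made up 59.3% and 65.9% of the summed level of the 10 genes in the cKO libraries and 65.9% and 69.9% in the Ctrl libraries. Of the 10 genes, 8 were lower in cKO 1 than in cKO 2, against 39.9% of all genes tested, and 7 were lower in Ctrl 1 than in Ctrl 2, against 46.8%.

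Of 10 other Sox genes listed, 6 passed the filter, 1 rose and none fell, with 1 lower at an unadjusted p under 0.05. The most abundant were Sox12, a SoxC gene at 13.1 and 11.95 FPKM in cKO 1 and cKO 2 and 9.01 and 11.9 FPKM in Ctrl 1 and Ctrl 2, and Sox18, a SoxF gene at 9.13 and 7.48 FPKM in the cKO libraries and 7.71 and 10.8 FPKM in the Ctrl libraries. Neither passed (limma adjusted p = 0.341 and 0.676). Sox1, the third SoxB1 gene, was at 3.51 and 2.82 FPKM in cKO 1 and cKO 2, against 1.74 and 2.28 FPKM in Ctrl 1 and Ctrl 2 (log2 fold change 0.47 ± 0.16 SE, limma adjusted p = 0.0484). No gene of the list rose in 14 of 17 alternatives, among them the filter at a mean of 5 FPKM, at which Sox1 is too low to be tested. Sox13, the third SoxD gene, was at 3.63 and 4.09 FPKM in the cKO libraries and at 4.67 and 6.86 FPKM in the Ctrl libraries (limma adjusted p = 0.0569). Sox21, a SoxB2 gene, was at 3.51 and 4.34 FPKM in the cKO libraries and at 4.66 and 5.48 FPKM in the Ctrl libraries and did not pass (limma adjusted p = 0.222). Of the related HMG-box genes of the TCF/LEF class, Tcf7l2, a partner of beta-catenin in differentiating oligodendrocytes, fell among 3 tested (3.06 and 4.02 FPKM in the cKO libraries, 6.36 and 7.39 FPKM in the Ctrl libraries, limma adjusted p = 0.000404), a call lost without cKO 1.

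Promoter windows were matched for 6 of the 10 genes. The 250 bases before the start of Sox8, the member with the lowest adjusted p, are shown with the matched motif in capitals (RefSeq, GRCm38.p6, chr17:25570687-25570936, minus strand).
Sox8: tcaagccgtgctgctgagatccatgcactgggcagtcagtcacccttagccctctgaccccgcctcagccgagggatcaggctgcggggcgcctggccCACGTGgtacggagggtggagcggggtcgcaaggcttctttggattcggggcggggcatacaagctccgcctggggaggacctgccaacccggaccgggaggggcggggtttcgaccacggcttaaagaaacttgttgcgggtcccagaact
The window holds CACGTG, a form of the E-box CANNTG that helix-loop-helix factors bind. On either strand CACGTG was present in 6.02% and CANNTG, which includes it, in 66.2% of 32851 such windows. The HMG-box core ACAAAG was not in the Sox8 window, and it was present in 16.5% of all windows, in that of Sox2 and in 5 of the 6 windows of Sox6. The related core ACAATG was present in 10.7% of all windows, in that of Sox5 and in 2 of those of Sox6. These matches describe the letters of the windows only.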

How the data were processed

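FPKM per RefSeq transcript were deposited by the authors, beside a coverage signal (average read depth over the transcript), per the file headers. The submitters' processing notes name CASAVA, TopHat, Cufflinks, Cuffdiff and mm9, with no versions. Each table has 28107 rows; rows of the 4 libraries were matched by transcript and position, and 315 rows not marked OK in every library were dropped. FPKM was summed per symbol over rows of at least 300 bases. Gene sums with a mean of at least 1 FPKM were tested as log2(FPKM + 1) with limma 3.58.1 in R 4.3.3 (genotype only, empirical Bayes with a mean-variance trend, Benjamini-Hochberg threshold 0.05). The spread had 36.3 prior and 2 residual degrees of freedom, so it is mostly pooled over genes. No count model was used because the values are FPKM. No read totals were given, so absolute depth is unknown and counting intervals cannot be made; relative depth is the ratio of coverage to FPKM.

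The members, the gene lists and the use of gene sums were chosen with earlier results of these data known. Chd7, all 10 members and, of each list, up to 3 tested members with the smallest p are eligible to be named; Myrf is listed in the files as Gm98. Genes of the lists named beyond this rule (Mbp, Olig2, Id2, Dcx, Elavl3, Elavl4, Ptprz1, Lhfpl3, Sox12 and Sox18) and Sox2ot were chosen after their values were seen. Coding sequences are from GENCODE M21 and promoters from RefSeq, both on GRCm38, and gene positions are the deposited ones (mm9), counted from 1.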

Additional observations from a re-analysis of the deposited data

How the results depend on the processing

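The fits were repeated under 17 alternatives. Sox8 fell in 11 of them and Sox10 in 9; the log2 fold change stayed below 0 in all 17, from -0.93 to -0.43 for Sox8 and from -0.96 to -0.43 for Sox10, and no other member passed in any. The number of Sox genes that fell was 1 with median-of-ratios or TPM scaling, and 0 under quantile scaling, with no filter, with all rows summed and with transcript rows, and from 0 to 2 when 1 library was left out. No Sox gene rose in any. Over all genes, 645 passed under TPM scaling, 736 under quantile scaling, 55 with no filter, 53 with all rows summed (rows under 300 bases included), 20 of the transcript rows, and from 384 (without cKO 1) to 1438 (without Ctrl 2) when 1 library was left out, against 1378. Sox5 reversed to -0.038 with transcript rows. Leaving out 1 library gave log2 fold changes from -0.33 to 0.37 for Sox3, -0.046 to 0.15 for Sox11, -0.043 to 0.22 for Sox5 and -0.23 to 0.57 for Sox9, so the direction of these 4 is not set. With a lone library in a group, its spread is assumed to be that of the other group. The cause of the lost calls was not tested.

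Libraries share only a number: the deviations of same-numbered libraries from their group means correlated at -0.24 across genes. With the replicate number as a block, 996 genes passed, Sox8 (limma adjusted p = 0.0146) and Sox10 (adjusted p = 0.0166) among them. A crossed pairing, added after the data were seen, gave 2178 calls, with 2 Sox genes among them. The subgroup sums moved by less than their spread under median-of-ratios and TPM scaling and with all rows summed; ratios within a library cannot change under such a scaling. Sox3, Sox5, Sox11 and Sox17 had a mean under 5 FPKM and were not tested at that filter. Depth limits Sox17, Sox5 and Sox3 most, in Ctrl 2 above all.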
